A study of Mus musculus with 8 samples.

Results

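The adhesion G protein-coupled receptors form a family of cell surface proteins that hold cells to their neighbours and to the matrix. The 25 genes described here were all autosomal protein-coding genes of the GENCODE annotation whose symbol begins with Adgr, out of 20807 autosomal protein-coding genes. They fell into 8 subfamilies, named by the letter that follows Adgr, and lay on 11 chromosomes. For each gene the acetylation of histone H3 at lysine 56 (H3K56ac) was read from a list of enriched intervals (peaks) found by chromatin immunoprecipitation and sequencing in mouse muscle stem cells (MuSCs). MuSCs are the stem cells that rebuild skeletal muscle after injury.

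The study set 2 genotypes side by side, on a C57BL/6 background. Control mice are given as wild type in the description of the experiment, whereas Control mice elsewhere in the study carried Sirt6 fl/fl without Cre, and which of these was used is not given in the sources used here. Sirt6mKO mice carried Sirt6 fl/fl together with Pax7-ICN Cre, so that SIRT6, a deacetylase of H3K56ac, was lost wherever the Pax7 promoter had been active, which includes the myofibres that descend from Pax7-expressing cells. The mice are given as males of 12 to 16 weeks. The cells were freshly isolated, depleted of cells positive for Sca1, CD45 or CD31, and sorted for Integrin-a7 and CD34 or for a fluorescent reporter, and the labels list 8 libraries, 2 of immunoprecipitated chromatin and 2 of input, that is, chromatin without immunoprecipitation, for either genotype. The list that was analysed joins peaks into one set, with 0 columns of values per library. Control and Sirt6mKO could therefore not be compared, no replicate error could be given, and the depth behind a peak is unknown. The paper reports a global rise in the number of H3K56ac peaks in Sirt6mKO MuSCs. It also describes the peaks after loss of Sirt6 as much broader than those of several other histone marks. The presence and width of a peak in the joined list may thus not be those of Control cells. All values below are the presence, the position and the width of a peak, or the share of a gene that peaks cover, and they are descriptions without a test.

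Adhesion receptors have a long extracellular part that carries adhesive domains, a GAIN domain next to the membrane, and a membrane-spanning part that couples to G proteins. In many of them the GAIN domain cuts its own chain, and the stretch behind the cut can act as a tethered agonist once the outer fragment is pulled away by a ligand on another cell or in the matrix. In muscle, some B subfamily receptors, Adgrb3 among them, are known for a role in myoblast fusion, and Adgrg1 for a role in muscle growth. H3K56ac marks active promoters and enhancers, so a peak at a start site is commonly read as a sign of open, transcribed chromatin, but no transcript was measured here.

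The list was checked against marker genes of the labelled cell type. All 8 MuSC markers had a promoter peak, that is, a peak within 3 kb of an annotated transcript start, beside 69.3% of all autosomal protein-coding genes. Their widest ones measured 2720 to 30239 bp. Among markers of other cells, 3 of 5 endothelial, 2 of 5 leukocyte and macrophage and 3 of 4 fibro-adipogenic genes had a promoter peak. So did 3 of 4 mural, 2 of 3 matched Schwann cell and 2 of 3 matched neuronal genes. With 69.3% over all genes, these small counts do not tell whether such cells were present. Of the endothelial genes, Tek (12975 bp), Pecam1 (3440 bp) and Kdr (1139 bp) had one, and Cdh5 and Emcn had none. Of the leukocyte and macrophage genes, Cd68 (2636 bp) and Csf1r (1786 bp) had one, and Ptprc, Itgam and Lyz2 had none. The depletion described above is aimed at endothelial and leukocyte cells and Sca1-positive fibro-adipogenic cells, but the paper reports that the sorted cells were not fully pure. Peaks from cells that passed the sort besides MuSCs cannot be told apart from those of MuSCs in this list.

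The promoters of the family differed in their content of CpG dinucleotides. The following stretches lie upstream of a RefSeq start on GRCm38.p6 (mm10), directly before it except for Adgra3 and Adgrg1, where an annotated exon next to the start was skipped, and are written 5′ to 3′ on the strand of the gene, with each CpG in capitals. They were chosen to show CpG-rich and CpG-poor promoters with and without a peak. The stretch of Adgrl1 (chr8:83899848-83900097, plus strand, 21 CpG in 250 bases) was covered by peaks over 70.0% of its length. The stretch of Adgra3 (chr5:50059007-50059095, minus strand, 13 CpG in 89 bases) lay wholly in a peak. The stretch of Adgrb2 (chr4:129984620-129984869, plus strand) held 35 CpG, the most of those printed, and fell between peaks. The stretch of Adgrb3 (chr1:25829708-25829957, minus strand) held 14 CpG with no peak near. The stretch of Adgrg1 (chr8:94984149-94984370, plus strand, 4 CpG in 222 bases) was CpG-poor and lay wholly in a peak. Those of Adgrl4 (chr3:151437632-151437881, plus strand, 5 CpG) and Adgre4 (chr17:55749734-55749983, plus strand, 2 CpG) were CpG-poor and outside peaks.
Adgrl1: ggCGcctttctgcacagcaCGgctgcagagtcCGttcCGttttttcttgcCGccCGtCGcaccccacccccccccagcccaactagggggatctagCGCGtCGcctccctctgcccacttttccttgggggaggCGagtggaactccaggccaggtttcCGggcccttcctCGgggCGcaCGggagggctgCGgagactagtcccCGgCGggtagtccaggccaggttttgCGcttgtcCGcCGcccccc
Adgra3: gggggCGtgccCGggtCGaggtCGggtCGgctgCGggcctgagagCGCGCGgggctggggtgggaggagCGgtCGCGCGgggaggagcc
Adgrb2: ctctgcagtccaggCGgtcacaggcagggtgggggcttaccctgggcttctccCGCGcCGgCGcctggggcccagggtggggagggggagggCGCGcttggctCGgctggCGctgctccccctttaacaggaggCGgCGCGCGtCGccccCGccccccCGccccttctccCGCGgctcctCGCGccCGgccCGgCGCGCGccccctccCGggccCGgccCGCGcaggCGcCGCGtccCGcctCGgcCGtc
Adgrb3: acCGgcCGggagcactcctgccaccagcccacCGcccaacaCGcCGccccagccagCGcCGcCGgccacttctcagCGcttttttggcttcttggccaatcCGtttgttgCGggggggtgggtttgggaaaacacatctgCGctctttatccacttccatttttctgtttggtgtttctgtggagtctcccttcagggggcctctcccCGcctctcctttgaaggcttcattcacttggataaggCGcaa
Adgrl4: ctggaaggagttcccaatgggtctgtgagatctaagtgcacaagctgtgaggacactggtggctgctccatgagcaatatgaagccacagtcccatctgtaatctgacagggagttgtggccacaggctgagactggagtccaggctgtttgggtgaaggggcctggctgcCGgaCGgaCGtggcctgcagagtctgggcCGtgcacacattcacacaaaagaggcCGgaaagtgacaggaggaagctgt
Adgre4: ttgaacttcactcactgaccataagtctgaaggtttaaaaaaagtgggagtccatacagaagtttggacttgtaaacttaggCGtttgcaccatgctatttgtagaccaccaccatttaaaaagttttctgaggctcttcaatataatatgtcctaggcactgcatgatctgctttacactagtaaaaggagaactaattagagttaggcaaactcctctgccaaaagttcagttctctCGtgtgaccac
Adgrg1: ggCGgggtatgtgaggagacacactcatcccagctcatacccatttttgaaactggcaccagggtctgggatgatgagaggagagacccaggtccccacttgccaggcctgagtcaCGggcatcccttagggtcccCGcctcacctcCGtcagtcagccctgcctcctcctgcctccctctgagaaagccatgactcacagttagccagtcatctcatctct

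Adgrg1 has 2 RefSeq windows, both CpG-poor. One lay outside peaks and held no AP-1 word. The other, from which the stretch above was taken, lay in a peak and carried the AP-1 word, TGACTCA or on the other strand TGAGTCA, at positions −141 and −59 from the start, and only 1 further member window held the word, that of Adgrf4, which lay outside peaks. AP-1 is the dimer of FOS and JUN proteins. The capitals below mark the word with 10 bases on either side, at chr8:94984248-94984274 and chr8:94984330-94984356 (plus strand) for Adgrg1 and at chr17:42692392-42692418 (minus strand) for Adgrf4.
Adgrg1, distal word: ttgccaggccTGAGTCAcgggcatccc
Adgrg1, proximal word: gagaaagccaTGACTCAcagttagcca
Adgrf4: ggcaaacaagTGACTCActttaatgga

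Of the 25 adhesion receptor genes, 13 (52%) had a promoter peak, beside 69.3% of all autosomal protein-coding genes. Widths of 5 kb or more were found at 4 members (16%), Adgra2, Adgre5, Adgra3 and Adgrf2, which is close to the background share of 17.3%. Peaks covered at least 10% of the gene in 6 members (24%), against 46.6% of all genes, and no base at all in 11 members (44%), against 29.4%. The median widest promoter peak was 2298 bp over the 13 members with one, with quartiles at 1239 and 5337 bp, and 3488 bp over the 14418 genes with one. Of the 13, 4 lay above the upper quartile of all genes (5000.5 bp), 7 below the lower quartile (2304 bp), and 2 between them. Adgrl1 (2298 bp) lay just below the lower quartile and Adgrf2 (5337 bp) not far above the upper one. In Adgrb1, Adgrb2, Adgrf3, Adgrg1 and Adgrv1, which are among the 7, the widest promoter peak held no annotated start. The plot of the widest promoter peak per gene shows that the peaks of subfamily A lay above the quartiles, those of B and G below them, and those of F on either side. With promoters taken within 1 kb instead, the order of the medians turned, to 3849 bp over 11 members and 3466 bp over all genes, with Adgrb1 and Adgrf3 then left without a promoter peak.

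**Figure D1:**
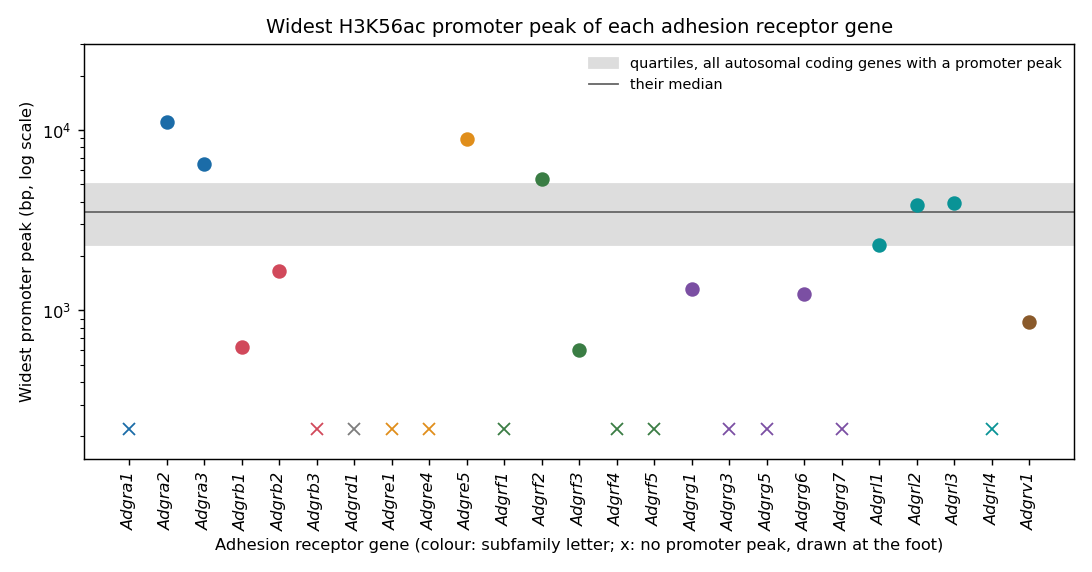
The widest H3K56ac promoter peak in bp (log axis) is plotted for each of the 25 adhesion receptor genes, coloured by subfamily, with crosses for the 12 genes without a promoter peak. The grey band and line give the quartiles and the median (3488 bp) of all genes with a promoter peak, and Adgra2, Adgre5, Adgra3 and Adgrf2 sit above the band.

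Subfamily A held the widest promoter peak of the family and also a gene with no peak. Adgra2 encodes a co-receptor that lets cells respond to WNT7 ligands together with RECK. Its widest promoter peak spanned 11099 bp (chr8:27083388-27094486) and was wider than 97.1% of the widest promoter peaks of all genes. It covered exon 1 and ran on into intron 1, of which 84.7% lay in peaks, as did 31.4% of the gene. Closing gaps of less than 1 kb joined this Adgra2 peak with its neighbours into 15612 bp. Adgra3, a relative with a role in planar cell polarity, had 3 promoter peaks of 3913, 2498 and 6463 bp (the last at chr5:50047244-50053706) that join into 12969 bp when gaps of less than 1 kb are closed. The peak of 3913 bp lay over the start of the principal transcript, while the widest lay at the start of a retained-intron transcript inside intron 1. With 13 peaks Adgra3 carried more than any other member, 12 of them in or overlapping intron 1, which was 76.3% covered. Adgra1, a receptor best known from brain, had no peak in the gene, and its nearest peak lay 59.6 kb from any start.

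The latrophilins of subfamily L, which bind teneurins and FLRT proteins and are known for roles at synapses, had promoter peaks of middling width at 3 of 4 genes. Adgrl1, Adgrl2 and Adgrl3 had widest promoter peaks of 2298, 3849 and 3958 bp, near or inside the quartiles of all genes. In Adgrl3, the longest member (805 kb), the peak (chr5:81019407-81023364) held 12 of the 24 annotated starts. The start of its principal transcript, by contrast, was 200760 bp from the nearest peak. In Adgrl2 the widest promoter peak (chr3:148987159-148991007) held 3 of 15 starts and also the start of the antisense gene Gm43573, and peaks without strand cannot be told apart between them. The start of the principal Adgrl2 transcript lay 1801 bp from the nearest peak. Adgrl4, which is known as an endothelial receptor, had neither a promoter peak nor a covered base, and its nearest peak lay 58.0 kb from a start.

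Subfamily B holds the receptors BAI1, BAI2 and BAI3, of which the first recognises dying cells and signals through ELMO1 and DOCK1. Its promoter peaks, where present, were narrow. Adgrb1 had promoter peaks of 626 and 292 bp, neither of them over a start. Adgrb2 had 5, of 659, 721, 914, 1656 and 854 bp, and 4 of them join into 4793 bp when gaps of less than 1 kb are closed. The RefSeq window of Adgrb2, whose upstream bases are printed above, lay 83 bp from the nearest of these peaks, and the start of its principal transcript lay inside the peak of 721 bp. Adgrb3, a receptor for C1q-like proteins with a role in myoblast fusion, had no peak along 762 kb, and its nearest peak lay 444 kb from any start. Among the 69 genes within 20% of its length, 15 likewise had no covered base.

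In subfamily E, which takes in receptors of myeloid cells, Adgre5 stood apart from the other two. Adgre5 encodes CD97, which binds CD55 and THY1 and occurs on many cell types. A peak of 8948 bp (chr8:83733360-83742307) covered exons 1 to 4 and 4 of its 7 starts, was wider than 94.5% of the widest promoter peaks of all genes, and took up 44.1% of the gene. This was the highest covered share in the family, above that of 92.2% of the 2318 genes of similar length. Adgre1, which encodes the macrophage marker F4/80, and Adgre4, another macrophage receptor, had no covered base, with the nearest peak 23599 and 35420 bp from a start.

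Subfamily F, with 4 of its 5 genes on chromosome 17, was split in the same way. Adgrf2, a receptor of unknown ligand, had a promoter peak of 5337 bp (chr17:42737995-42743331) over its single annotated start and 6 peaks in all, which covered 39.8% of the gene and 88.0% of its exon bases. Its neighbour Adgrf4, known from epithelia, lies behind a gap of 16.7 kb that overlapped 3 peaks, among them a peak of 4831 bp that reaches into Adgrf2. It had no peak of its own, and the nearest one lay 7155 bp from its start. Adgrf1, which responds to a fatty acid amide in brain, and Adgrf5, which governs surfactant in the lung and is also found in endothelium, lay side by side with no peak between them. Adgrf1 had 1 peak of 578 bp in its first intron, 9274 bp from the start, and Adgrf5 had none. Adgrf3, on chromosome 5, had a single promoter peak of 603 bp, the narrowest of the family, which lay over exon 4 and 1104 bp from the nearest start.

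In subfamily G the marked genes had narrow peaks. Adgrg1 (GPR56), a receptor for collagen III and transglutaminase 2, had 8 promoter peaks of 370 to 1317 bp along 16 annotated starts and 1 further peak of 1882 bp. Closing gaps of less than 1 kb gave a widest stretch of 5285 bp that held 4 of the 9 peaks in the gene. The start of the principal transcript lay outside this stretch, in a peak of 1262 bp. Peaks covered 21.01% of the gene, more than in 79.97% of the 2027 genes of similar length. Adgrg1 was thus marked by many separate peaks rather than by 1 wide peak. It lies between Adgrg5 and Adgrg3, both receptors of leukocytes, in a stretch of 121.6 kb on chromosome 8 with 9 peaks, all of them in Adgrg1. Adgrg5 and Adgrg3 had no covered base, although a peak of 2500 bp lay 4888 bp from an Adgrg5 start. Adgrg6 (GPR126), which drives myelination by Schwann cells and binds collagen IV and laminin, had 1 peak of 1239 bp (chr10:14544734-14545972) that covered all 4 of its starts. Adgrg7, known from intestine, had no peak.

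The remaining subfamilies have 1 gene each. Adgrv1, the longest of the receptors as a protein and part of the ankle links of hair cells, had a peak of 729 bp at the start of its principal transcript and a slightly wider one of 863 bp over exon 19, 1305 bp from the start of a retained-intron transcript. A further group of 3 peaks, the widest 2930 bp, lay 494888 to 501406 bp from the 5′ end, far from any annotated start. Adgrd1, which raises cyclic AMP, had no peak in the gene or its promoters.

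The map of peaks around the 5′ ends shows where the mark lay along the genes. Over the 13 members with a promoter peak, 40.1% of the first 10 kb was covered against 2.45% of the rest of the genes, and the share was higher in the first 10 kb in 13 of 13. Because a promoter peak is what defines these 13 genes, this difference is in part given by their choice. Of the 99.2 kb covered in these genes, 52.1 kb lay in the first 10 kb, and in 4 of them, Adgra3, Adgrg1, Adgrl2 and Adgrv1, most of the covered bases lay farther in. Of the 173 annotated starts of the family, 40 (23.1%) lay in a peak, beside 53.7% of the 90310 starts of all genes. The start of the principal transcript lay in a peak in 9 of 25 members (36.0%), beside 58.9%. Members with a promoter peak had a median of 9 annotated starts and those without a median of 3. A gene with more starts has a larger promoter region under this definition. Over all genes these medians were 4 and 2.

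**Figure D2:**
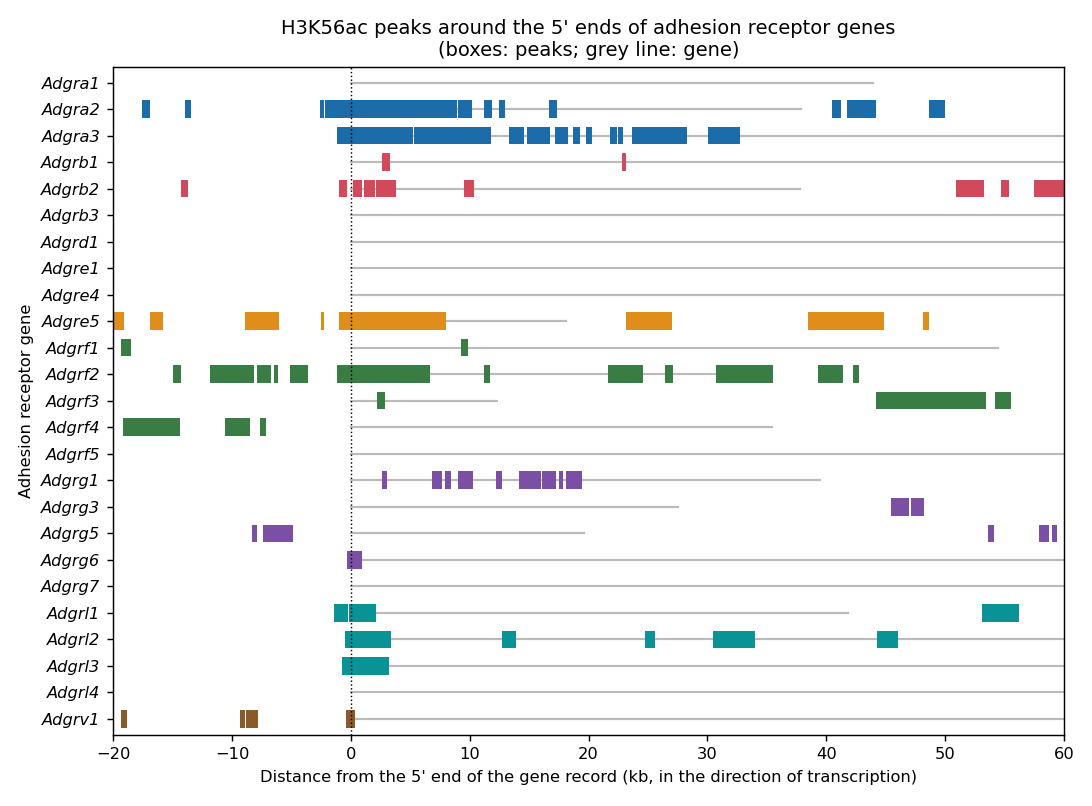
Each row is 1 adhesion receptor gene, with boxes for H3K56ac peaks from 20 kb before to 60 kb after the 5′ end of the gene record (distance in kb along the direction of transcription) and a grey line for the gene. Boxes gather at the dotted line in Adgra2, Adgra3, Adgre5 and Adgrf2, Adgrg1 has a row of narrow boxes, and 11 rows have no box within the gene.

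The 12 members without a promoter peak were Adgra1, Adgrb3, Adgrd1, Adgre1, Adgre4, Adgrf1, Adgrf4, Adgrf5, Adgrg3, Adgrg5, Adgrg7 and Adgrl4. Their nearest peak lay 4.89 to 444 kb from any start, with a median of 30.5 kb. Together these genes span 1557 kb and were 0.0371% covered, through the single peak of Adgrf1.

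Covered shares were also set beside genes of similar length. The family is long, with a median of 71.2 kb against 17.6 kb over all genes. The median covered share was 0.80% over the 25 members and 8.45% over all genes, and the share of all bases, pooled over genes, was 2.76% against 11.6%. Set beside genes within 20% of the same length, 8 members had a covered share above the median of their group, 6 with a covered base lay below it, and the other 11 had no covered base. Adgre5, Adgrf2, Adgra2, Adgra3 and Adgrg1 exceeded 92.2%, 91.3%, 89.3%, 83.7% and 79.97% of such genes, and Adgrb2 exceeded 60.2%. Adgrl3 and Adgrl2 exceeded 54.2% and 50.1% of such genes and so lay near the median of their groups. The plot of covered share by length shows Adgre5, Adgrf2, Adgra2, Adgra3, Adgrg1 and Adgrb2 above the grey marks.

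**Figure D3:**
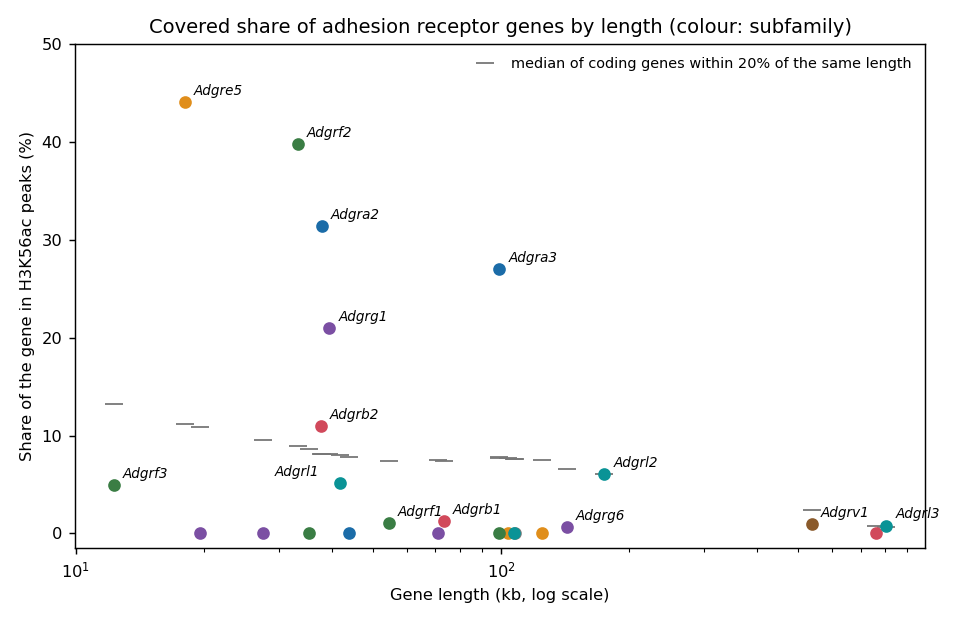
The share of each adhesion receptor gene covered by H3K56ac peaks (%) is plotted against gene length in kb (log axis), with points coloured by subfamily and grey marks for the median of coding genes within 20% of the same length. Adgre5 (44.1%), Adgrf2 (39.8%), Adgra2 (31.4%), Adgra3 (27.0%), Adgrg1 (21.01%) and Adgrb2 (11.0%) stand above their grey marks, and 11 genes lie at 0.

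Base composition at the starts was set beside the peaks with the RefSeq promoter table (GRCm38.p6), which gives 250 bases before to 50 after a start. It held 22 windows for 18 members, and no window for Adgra2, Adgrb1, Adgrd1, Adgre1, Adgre5, Adgrf2 and Adgrf3. Of these, all but Adgrd1 and Adgre1 had a promoter peak, so the window shares leave out several marked members. Of the member windows 8 (36.4%) overlapped a peak, against 63.4% of 19174 windows of all genes. A ratio of observed to expected CpG of at least 0.6 was taken as CpG-rich. Among 9 CpG-rich member windows 6 (66.7%) lay in a peak, beside 92.7% of all CpG-rich windows, and among 13 CpG-poor ones 2 (15.4%) did, beside 33.9%. The 9 CpG-rich windows came from 7 genes, and those of Adgrl3 all lay in the same peak of 3958 bp. The 3 CpG-rich windows outside peaks belonged to Adgra1 (ratio 0.69), Adgrb2 (0.90) and Adgrb3 (0.64), and the CpG-poor windows in peaks to Adgrg1 (0.22) and Adgrv1 (0.49).

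**Figure D4:**
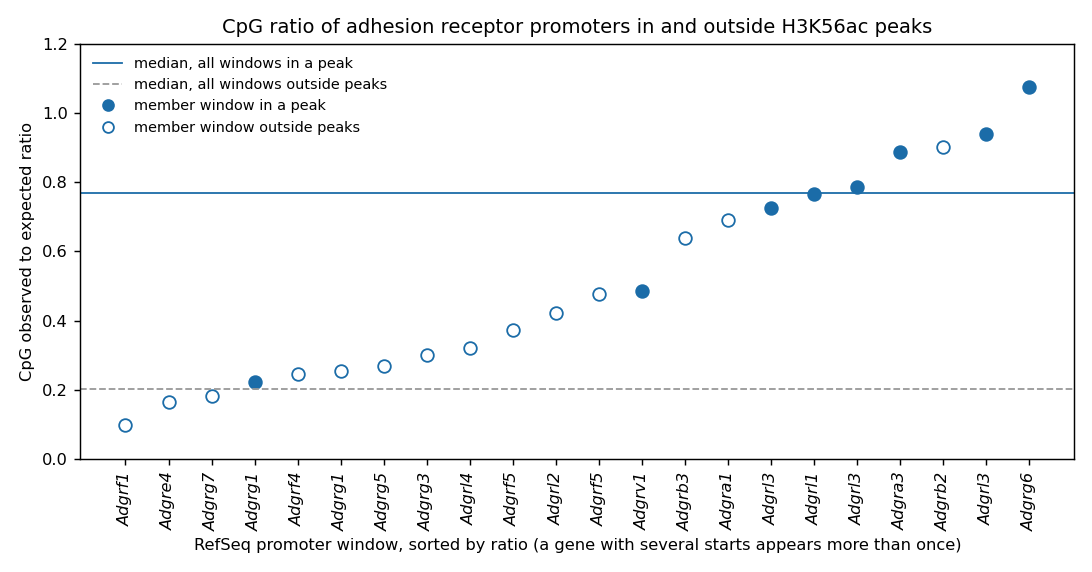
The observed to expected CpG ratio is plotted for the 22 RefSeq promoter windows of 18 adhesion receptor genes, with filled points for windows in an H3K56ac peak and open points for those outside, and lines for the medians over all genes (0.769 in a peak, 0.203 outside). Filled points gather at the high end, and the open points of Adgrb2, Adgra1 and Adgrb3 and the filled points of Adgrg1 and Adgrv1 break the order.

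Short motifs were counted on both strands in the same windows. The AP-1 word occurred in 2 of 22 member windows (9.09%), against 4.66% of all windows, 3.31% of those in a peak and 7.01% of those outside. The E-box CAGCTG, bound by MYOD1 and its relatives, was in 2 member windows (9.09%), of Adgrg6 and Adgrl3, both in peaks, against 15.8% of all. The GC box GGGCGG was in 12 (54.5%) against 48.3%, CCAAT in 6 (27.3%) against 37.5%, TATAAA in 2 (9.09%) against 12.1%, and TGGGAA, the core of the site of the Notch effector RBPJ, in 5 (22.7%) against 24.1%. These shares rest on few windows, several of them from the same gene, and a word is not a bound site.

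The genes of known binding partners and effectors were read in the same way. Of 32 partner genes 27 (84.4%) had a promoter peak, beside 69.3% of all genes. The widest belonged to Col4a1 (28440 bp), a ligand of ADGRG6, and Flrt2 (12696 bp), a ligand of latrophilins, and genes without one included C1ql2, Wnt7a and Sftpd. All 18 genes of the intracellular effectors, among them G protein subunits and adenylyl cyclases, had a promoter peak, the widest at Adcy9 (14219 bp) and Gnas (14030 bp).

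Other receptor classes were set beside the family and the share of 69.3% over all genes. In the Secretin class, the closest relatives of the adhesion receptors, 13 of 15 genes had a promoter peak, with a median widest of 1490 bp. The widest lay at Calcr (25343 bp), which is also a MuSC marker, and Adcyap1r1 (4342 bp), and Crhr1 and Pth2r had none. All 11 genes of the Frizzled class had one, with a median of 4264 bp and the widest at Fzd4 (18001 bp) and Fzd7 (9871 bp). In the Glutamate class 8 of 15 genes (53.3%) had one. Its widest lay at Gprc5b (2878 bp) and Gprc5c (2539 bp), and genes without one included Grm2, Grm3 and Gprc6a. Widths of 5 kb or more occurred at 4 of 25 adhesion, 1 of 15 Secretin, 3 of 11 Frizzled and 0 of 15 Glutamate genes, beside 17.3% of all genes.

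**Figure D5:**
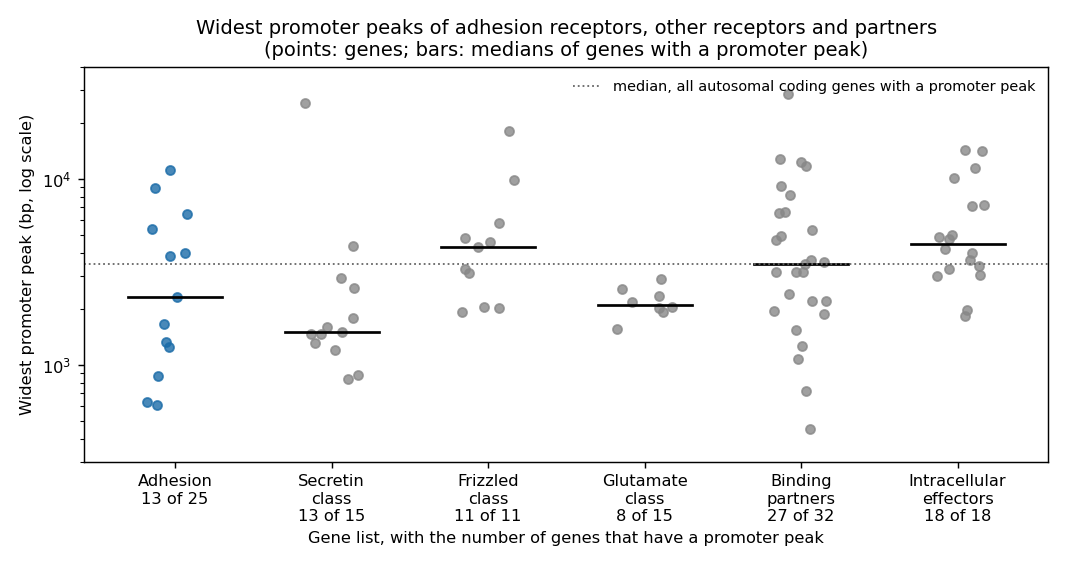
The widest H3K56ac promoter peak in bp (log axis) is plotted per gene for adhesion receptors, the other receptor classes, binding partners and intracellular effectors, with bars for medians of the genes that have one and counts of such genes under each list. The adhesion receptors (13 of 25, median 2298 bp) spread from 603 to 11099 bp, and all 11 Frizzled and all 18 effector genes have a point.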

How the data were processed

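The authors made ChIP-seq libraries from sorted MuSCs with an Ion Torrent kit, trimmed reads with Trim Galore, aligned them to mm10 with bowtie keeping single alignments, removed duplicates with Picard, called peaks with MACS2 at its default settings, removed blacklisted regions and merged overlapping peaks with GenomicRanges. The submitters' processing notes also name FastQC, SAMtools and deepTools. The deposited list holds 105600 intervals with a score of 0 in every row, and 0 columns of values per sample. Which libraries entered it is not given in the sources used here. Merging widens intervals, and keeping single alignments lowers the chance of a peak in repeats.

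Genes and starts came from GENCODE M21 (mm10, 19 autosomes). A promoter peak overlapped by at least 1 bp the 3 kb on either side of any annotated start. The covered share is the percent of a gene record inside peaks. The principal transcript is the coding transcript that APPRIS ranks first, with the longest coding sequence. Scripts were written in Python 3.11.15 with scipy 1.17.1 and matplotlib 3.10.9 and checked on simulated intervals. No test was made, since genes are not replicates. The planned comparison of Sirt6mKO with Control needed values per library and was not run. All members were named. Of the other lists, the 2 genes with the widest promoter peak and those with none were to be named (some of the latter are not reported here). The members and lists were chosen with earlier results of these data known. Alternatives changed the promoter window, the starts, the narrowest interval, the joining of intervals and the gene bounds.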

Additional observations from a re-analysis of the deposited data

How the results depend on the processing

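No paired analysis was possible because the list holds no values per library. Of 22 alternative values for 5 results, 20 stayed close to those given, which for counts and shares means within 1.5 times. The median widest promoter peak of the members moved from 2298 to 3849 bp with promoters taken within 1 kb. That setting drops Adgrb1 and Adgrf3 and leaves 11 of 25 members with a promoter peak, beside 66.8% of all genes. It also puts the median of the members above that of all genes (3466 bp) in place of below. With intervals less than 1 kb apart joined, the median of the members moved to 3958 bp (4356 bp over all genes). Joining also brought the members with a promoter peak of at least 5 kb from 4 to 5 of 25, against 29.0% of all genes. Counting only the starts of coding transcripts brought them to 3 of 25, against 16.5% of all genes. Taking the 5′ end of the gene record likewise gave 3 of 25, against 15.1% of all genes. The other settings kept 13 members with a promoter peak. The median covered share ran from 0.80% to 0.957%, and the share of all bases from 2.70% to 3.33%, the latter without Adgrl3. Without depth or strength, a weak peak and a missing one cannot be told apart.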

Other observations

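Adhesion receptor genes outside the autosomal coding set were read in the same way. Adgrg2, on the X chromosome and known from the male reproductive tract, had a promoter peak of 1058 bp, and 1.25% of the gene was covered. Adgrg4, also on the X chromosome, had no peak. The transcribed pseudogene Adgrd2-ps, on chromosome 2, had a promoter peak of 321 bp and no covered base within its record.

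Several adhesion receptor genes lie close together. Adgre5 and Adgrl1, of different subfamilies, share a stretch of 218.7 kb on chromosome 8 with no coding gene between them. The 158.8 kb that separates them overlapped 11 peaks, among them the start peaks of Adgre5 (8948 bp) and Adgrl1 (2298 bp), which reach into it. On chromosome 17, Adgrf4 and Adgrf2 together span 85.3 kb, of which 21.2% was covered, while Adgrf1 and Adgrf5 span 189.2 kb, of which 0.305% was covered.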
